A study of Mus musculus with 20 samples.

Results

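Neurons release transmitter when a synaptic vesicle fuses with the presynaptic membrane, and 41 genes of that machinery are described here, named by gene symbol among the 24528 rows of one table of expression values and all measured in it. They were listed by name, with earlier results of these data known, and none of the 41 is at 0 in every library. They fall into 5 roles: 11 synaptotagmins, 8 vesicle proteins, 3 vesicular glutamate transporters, 7 genes of the SNARE machinery and 12 active zone proteins and Rab3 effectors. The study asked how an acetylation-mimic change in TDP-43, an RNA-binding protein that forms aggregates in frontotemporal dementia and amyotrophic lateral sclerosis, alters RNA in the ageing mouse brain. Total RNA was sequenced from dissected hippocampus and neocortex (labelled Cortex) of mice aged 18 months that were homozygous for the knock-in allele (TDP43-KQ) or wild type (TDP43-WT). The groups are hippocampus TDP43-KQ (n = 5, 3 female and 2 male), hippocampus TDP43-WT (n = 4, 3 female and 1 male), neocortex TDP43-KQ (n = 6, 3 female and 3 male) and neocortex TDP43-WT (n = 5, 3 female and 2 male), 20 libraries in all. The allele carries glutamine in place of an acetylated lysine of TDP-43 together with silent genotyping changes, was made by CRISPR/Cas9 in C57BL/6J zygotes and is present in every cell; which founder line gave these animals was not given in the sources used here. The mice came from 5 litters in the neocortex libraries and 4 of those litters in the hippocampus libraries.

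Vesicles are filled with glutamate by the transporters encoded by Slc17a6, Slc17a7 and Slc17a8, are held in clusters by the synapsins, and are brought to the active zone by the small GTPases of the Rab3 family and the scaffolds RIM, Bassoon and Piccolo. There the Munc13 proteins (Unc13b, Unc13c) open syntaxin so that it can pair with SNAP-25 and the vesicle protein synaptobrevin, complexins hold the assembled SNARE complex, and calcium binding to a synaptotagmin triggers fusion. Different neurons use different members: Syt2 serves fast release from many inhibitory and hindbrain terminals, Syt7 and the Doc2 proteins serve slower or spontaneous release, and vesicular glutamate transporter genes divide cortical from subcortical glutamatergic neurons.

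The values are variance-stabilised counts, a scale close to log2 on which a difference of 1 is about a 2-fold change for well expressed genes, from which the authors had removed sex and litter. Each gene averages 0 over the neocortex TDP43-KQ libraries, so a value gives a gene's position between libraries and not its abundance, levels of different genes cannot be compared, and the depth of each library is unknown. The removal of litter left 3 libraries without an independent value. Neocortex TDP43-WT male 1 was the only library of its litter, and its value equals the mean of the other neocortex TDP43-WT libraries for every tested gene, so that group holds 4 informative libraries. TDP43-KQ female 2 of hippocampus and of neocortex were the only 2 libraries of another litter, and their deviations from their group means are exact mirror images in every gene, so where one is high the other is low by the same amount. Genotypes were compared with limma, with sex and litter as terms, and p-values were adjusted by the Benjamini-Hochberg method over all genes tested (18310 in hippocampus, 18329 in neocortex, 17863 in a model of both regions). In the region fits some libraries carry no weight in the genotype difference once sex and litter are terms: hippocampus TDP43-KQ females 2 and 3 and TDP43-WT female 3, which leaves 3 libraries against 3 of unequal weight, and neocortex TDP43-KQ female 2 and TDP43-WT male 1. In hippocampus TDP43-KQ female 1 has a weight of 0.5 and TDP43-WT male 1 of -0.5, and the other weighted libraries have 0.25 or -0.25. The largest weights in neocortex are 0.36 for TDP43-KQ female 1 and -0.43 for TDP43-WT male 2. Tardbp, which encodes TDP-43 and raises its own RNA when the protein loses function, had -0.16 to 0.16 in TDP43-KQ and -1.03 to -0.62 in TDP43-WT hippocampus, and -0.098 to 0.13 in TDP43-KQ and -1.07 to -0.90 in TDP43-WT neocortex. The genotypes did not overlap in either region, and the difference was 0.86 ± 0.13 in hippocampus (SE, adjusted p = 0.204) and 0.99 ± 0.069 in neocortex (adjusted p = 0.00192). Of 9 hippocampal glutamatergic markers 9 were higher in hippocampus than in neocortex of TDP43-KQ mice, as the tissue labels say. The labels do not say which libraries share a mouse, and p-values measure the spread between these libraries.

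In hippocampus, most release genes had lower values in TDP43-KQ than in TDP43-WT libraries, and no single gene passed the test. Of the 41 genes, 32 had a difference below 0 and 9 above it, against 51.7 percent below 0 among all genes tested, and the median difference was -0.12 against -0.0047 over all genes. By limma, 0 of 41 genes passed an adjusted p of 0.05 (percent called among all genes: 0), with a smallest adjusted p of 0.251, for Syt2. At an unadjusted p under 0.05, 12 genes were lower and 0 higher, where 5.67 percent of all genes were lower and 6.48 percent higher. In 9 genes (Syt3, Syt11, Syt13, Syn1, Cplx2, Rims1, Rims2, Rph3a and Slc17a7) every TDP43-KQ library lay below every TDP43-WT library, and in 0 genes above; among all genes tested 5.35 percent were separated in the lower direction and 4.1 percent in the higher. These genes were measured in the same libraries, so the count does not stand for that many independent observations.

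The shift was uneven over libraries. Averaged over the 41 genes, the deposited values were -0.40, -0.26, -0.32, -0.30 and -0.35 in TDP43-KQ hippocampus (females 1, 2 and 3, males 1 and 2), against -0.24, -0.24, -0.26 and -0.27 in TDP43-WT hippocampus (females 1, 2 and 3, male 1), so the groups overlapped only where TDP43-KQ female 2 lay above TDP43-WT male 1. Without TDP43-KQ female 1 the median difference was -0.068, 30 genes lay below 0 and 2 were lower at an unadjusted p under 0.05, and without TDP43-KQ male 2 the 12 came to 7. Without TDP43-WT male 1 the median was -0.18, with 36 genes below 0. The model of both regions, which takes in all 5 TDP43-KQ libraries, gave a median of -0.094, with 30 genes below 0 (50.4 percent of all genes), 7 lower and 0 higher at an unadjusted p under 0.05 (7.65 and 7.19 percent of all genes), and 0 of 41 called (0.386 percent of all genes called); the 7 came to 3 without TDP43-KQ female 1, 4 without TDP43-WT male 1, 11 without neocortex TDP43-KQ male 1 and 14 without TDP43-KQ female 2. In a fit of hippocampus with genotype as the one term, Rph3a alone passed (1 of 41, against 2.04 percent of all genes).

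Among the calcium sensors, Syt2 differed most. Its deposited values were -0.94, -0.30, -0.64, -0.81 and -0.65 in TDP43-KQ hippocampus (in the order females 1, 2 and 3, males 1 and 2, as in all lists below), against -0.42, -0.35, -0.40 and -0.36 in TDP43-WT hippocampus (females 1, 2 and 3, male 1). TDP43-KQ libraries other than female 2 were lower than every TDP43-WT library, whereas female 2 was the highest of all 9. The difference was -0.46 ± 0.080 (log2-like, SE, adjusted p = 0.251 by limma), and in the model that takes in female 2 it was -0.28 ± 0.14 (adjusted p = 0.36). Syt3, a slower calcium sensor, had 0.056, 0.24, 0.18, 0.18 and 0.17 in TDP43-KQ and 0.36, 0.25, 0.25 and 0.35 in TDP43-WT hippocampus, without overlap, a difference of -0.21 ± 0.068 (adjusted p = 0.313). Of the other 9 synaptotagmins, 7 had differences below 0, between -0.15 for Syt11, which does not bind calcium, and -0.050 for Syt4, among them Syt1 (-0.10), the sensor of fast release in forebrain excitatory neurons; Syt6 (0.017) and Syt17 (0.16) lay above 0.

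All 7 genes of the SNARE machinery lay below 0 in hippocampus, 5 of them at an unadjusted p under 0.05 and 0 after adjustment. Vamp1, a vesicle SNARE, had -0.77, -0.16, -0.36, -0.40 and -0.42 in TDP43-KQ hippocampus, against -0.13, -0.27, -0.27 and -0.27 in TDP43-WT hippocampus. The lowest value was again that of TDP43-KQ female 1, and TDP43-KQ female 2 lay among the TDP43-WT libraries; the difference of -0.36 ± 0.10 (adjusted p = 0.293) was -0.19 in the model of both regions and ranged from -0.57 to -0.14 as each library was left out. Cplx1, a complexin that clamps and then promotes fusion, had -0.53, -0.31, -0.43, -0.50 and -0.44 in TDP43-KQ and -0.39, -0.24, -0.41 and -0.24 in TDP43-WT hippocampus (-0.22 ± 0.071, adjusted p = 0.309). The other members were Cplx3 (-0.25), Snap25 (-0.18), Vamp2 (-0.16), Cplx2 (-0.13) and Stx1a (-0.068). In TDP43-KQ hippocampus Cplx2 was the only one of the 7 that lay below TDP43-WT in every library.

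Rph3a, which encodes rabphilin, a Rab3 effector on vesicles, had the smallest adjusted p of the 41 genes in the model of both regions. Its values were -0.76, -0.55, -0.60, -0.57 and -0.66 in TDP43-KQ hippocampus, against -0.46, -0.38, -0.30 and -0.35 in TDP43-WT hippocampus, with no overlap. The difference was -0.30 ± 0.068 (adjusted p = 0.263), and -0.26 ± 0.062 in the model of both regions (adjusted p = 0.0887), neither past 0.05. Rims3, a short RIM protein, had -1.43, -1.04, -1.38, -1.11 and -1.43 in TDP43-KQ and -1.16, -1.04, -1.15 and -1.06 in TDP43-WT hippocampus, where 3 TDP43-KQ libraries were lower than every TDP43-WT library and the other 2 were not (-0.27 ± 0.10, adjusted p = 0.361). The active zone scaffolds Rims1 (-0.20) and Rims2 (-0.12) were separated without overlap, and Pclo (-0.14), Rab3a (-0.13), Bsn (-0.11) and Doc2a (-0.041) had values below 0. Above 0 were Unc13b (0.28), Rab3c (0.10), Doc2b (0.090) and Unc13c (0.012). The study lists Rims2 among transcripts with altered splicing in these mice, which 1 value per gene cannot show.

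Of the vesicle proteins, 7 of 8 lay below 0 in hippocampus. Synpr, which encodes synaptoporin, a protein of hippocampal mossy fibre vesicles, had -0.34, -0.56, -0.18, -0.17 and -0.10 in TDP43-KQ and 0.0039, 0.12, -0.23 and -0.060 in TDP43-WT hippocampus (-0.24 ± 0.091, adjusted p = 0.368). Here TDP43-KQ female 2 was the lowest library, and the difference was -0.41 without TDP43-WT male 1 and -0.077 without TDP43-KQ female 1. Sv2b, a vesicle glycoprotein, had -0.48, -0.36, -0.31, -0.33 and -0.35 in TDP43-KQ and -0.23, -0.14, -0.41 and -0.29 in TDP43-WT hippocampus (-0.17 ± 0.079, adjusted p = 0.433, or -0.30 and -0.049 without the same 2 libraries), with TDP43-WT female 3 inside the TDP43-KQ range. The others were Syp (-0.16), Syn1 (-0.16), Sv2a (-0.13), Syn2 (-0.095), Syn3 (-0.065) and Sv2c (0.084); only Syn1 was separated without overlap. Among the transporters, Slc17a7, which encodes VGLUT1 of cortical and hippocampal excitatory neurons, had -0.41, -0.28, -0.35, -0.20 and -0.24 in TDP43-KQ and -0.061, -0.12, -0.15 and -0.090 in TDP43-WT hippocampus, a full separation with a difference of -0.22 ± 0.072 (adjusted p = 0.317, -0.13 without TDP43-KQ female 1). Slc17a8 (VGLUT3) had 0.18, 0.17, 0.18, -0.073 and 0.28 in TDP43-KQ and -0.025, 0.097, 0.14 and 0.14 in TDP43-WT hippocampus, overlapping widely (0.053 ± 0.11, turning to -0.037 without TDP43-KQ female 1), and Slc17a6 (VGLUT2) differed by 0.015.

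**Figure D1:**
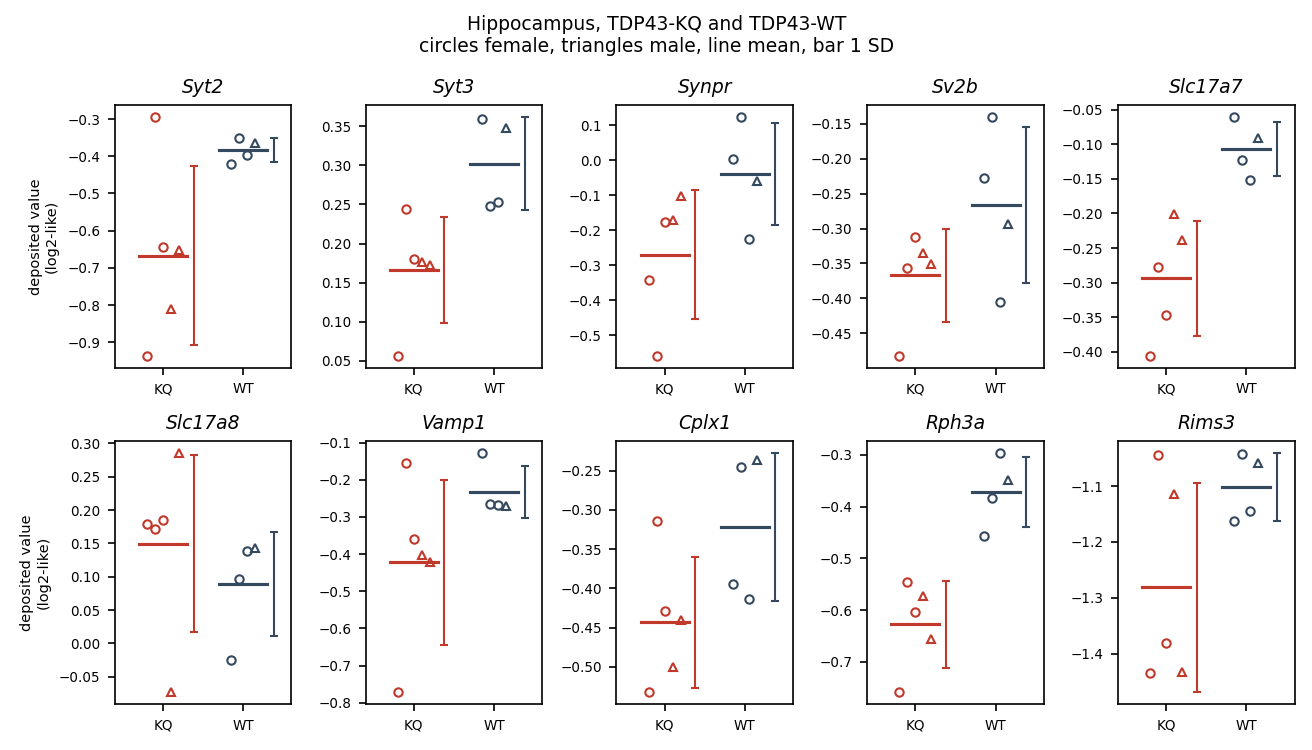
Deposited values (log2-like, y axis, a scale per gene) of the 10 release genes with the smallest p per role in hippocampus, TDP43-KQ (n = 5) left of TDP43-WT (n = 4); each point is a library, circles are female and triangles male, the line is the mean and the bar 1 SD. Syt3, Slc17a7 and Rph3a show no overlap, while for Syt2, Vamp1, Cplx1 and Rims3 single TDP43-KQ libraries reach the TDP43-WT range.

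Markers of other cells moved with genotype in the same hippocampus libraries, and their part in these differences was not tested. The choroid plexus markers lay above 0 in 4 of 4 (TDP43-KQ minus TDP43-WT, median 1.99), with list means of 0.34 to 4.42 in TDP43-KQ and 0.090 to 2.51 in TDP43-WT hippocampus, the highest in TDP43-KQ female 1, and the meningeal markers in 4 of 4 (median 0.63, list means of 0.78 to 1.38 in TDP43-KQ and 0.37 to 0.68 in TDP43-WT hippocampus). All 8 GABAergic markers had values below 0 (median -0.26), with list means of -0.55 to -0.40 in TDP43-KQ and -0.31 to -0.13 in TDP43-WT hippocampus. Pvalb, the parvalbumin gene of the fast-spiking interneurons in which Syt2 is enriched, differed by -0.48 ± 0.094 (adjusted p = 0.263), while Gad2 differed by -0.018. Hippocampal glutamatergic markers were below 0 in 7 of 9 (median -0.18), oligodendrocyte markers in 5 of 5 (median -0.36) and general neuronal markers in 6 of 8 (median -0.096). In bulk tissue, fewer cells of a type and less RNA per cell cannot be told apart.

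In neocortex the release genes lay on both sides of 0: 19 lay above 0 and 22 below (51.5 percent of all genes below), with a median difference of -0.013 between TDP43-KQ and TDP43-WT libraries against -0.0037 over all genes. Those numbers moved with single libraries: without TDP43-WT female 3, TDP43-KQ female 3 or TDP43-KQ male 1 there were 12 above and 29 below (median -0.034), and without TDP43-KQ female 1 there were 23 above and 18 below (median 0.016). By limma 0 of 41 passed an adjusted p of 0.05 (0.0382 percent of all genes called), the smallest adjusted p being 0.217. At an unadjusted p under 0.05, 7 genes were higher and 3 lower, where 7.69 and 5.97 percent of all genes were; the 7 came to 3 without TDP43-KQ female 1 and also without TDP43-WT male 2, and the 3 came to 5 without TDP43-KQ female 1. Without litter in the model, with genotype as the one term, 8 genes passed (Bsn, Unc13b, Syt7, Syt17 and Doc2a higher, Syt6, Syt12 and Snap25 lower), 19.5 percent of the 41 against 15 percent of all genes in the same fit, a fit that does not count the freedom already spent when sex and litter were removed. Groups did not overlap for Syt7 and Syt17 in the higher direction and for Syt6 and Syt12 in the lower (4.22 and 4.29 percent of all genes). The model of both regions gave 13 genes above and 28 below 0 (50.7 percent of all genes below), with 5 higher and 3 lower at an unadjusted p under 0.05 (7.5 and 6.95 percent of all genes) and 0 of 41 called (0.224 percent of all genes); the 3 came to 1 without TDP43-WT male 2 and 8 without TDP43-KQ female 1, and the 5 to 2 without TDP43-WT female 2.

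The synaptotagmins divided. Syt7, the sensor of asynchronous release and facilitation, had -0.070, -0.034 and 0.13 (lowest, median and highest) in TDP43-KQ neocortex, against -0.15, -0.38, -0.25, -0.24 and -0.17 in TDP43-WT neocortex (females 1, 2 and 3, males 1 and 2, where male 1 holds the group mean, as in all neocortex lists below). Every TDP43-KQ library was above every TDP43-WT library, with a difference of 0.25 ± 0.071 (adjusted p = 0.248 by limma). The study, testing counts with DESeq2 and correcting for sex and litter, names Syt7 among the genes upregulated in the cortex. The fit given here used values from which sex and litter had already been removed, so the 2 tests are not alike. Syt6, a synaptotagmin without a settled role in release, had -0.21, 0.021 and 0.10 (lowest, median and highest) in TDP43-KQ and 0.21, 0.16, 0.17, 0.20 and 0.26 in TDP43-WT neocortex, a separation in the other direction (-0.24 ± 0.061, adjusted p = 0.219). Syt17 (0.20) and Syt12 (-0.14) were separated as well, while Syt1, Syt2, Syt3, Syt4, Syt5, Syt11 and Syt13 lay between -0.052 and 0.022.

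At the active zone, Bsn, which encodes the scaffold Bassoon, had -0.21, 0.022 and 0.17 (lowest, median and highest) in TDP43-KQ neocortex, against -0.14, -0.59, -0.33, -0.36 and -0.36 in TDP43-WT neocortex. Of the 41 genes this had the widest difference in neocortex, 0.35 ± 0.11 (adjusted p = 0.28), and the groups overlapped through TDP43-WT female 1. Doc2a, a calcium sensor of spontaneous release, had -0.12, 0.024 and 0.092 (lowest, median and highest) in TDP43-KQ and -0.24, -0.25, -0.047, -0.19 and -0.22 in TDP43-WT neocortex (0.23 ± 0.059, adjusted p = 0.217), with TDP43-WT female 3 inside the TDP43-KQ range. The other 10 were Unc13b (0.27), Pclo (0.16), Rab3a (-0.013), Rab3c (-0.023), Rims3 (-0.038), Rph3a (-0.067), Rims1 (-0.072), Rims2 (-0.097), Doc2b (-0.14) and Unc13c (-0.22). Unc13b and Unc13c, which encode related Munc13 priming proteins, thus stood at opposite signs, both at an unadjusted p under 0.05 and neither after adjustment. In the model of both regions 0 of the 12 genes of this role were lower at an unadjusted p under 0.05, so Unc13c was not.

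Among SNARE genes, Stx1a, which encodes syntaxin-1A of the presynaptic membrane, had -0.16, -0.018 and 0.14 (lowest, median and highest) in TDP43-KQ neocortex, against -0.092, -0.11, -0.052, -0.13 and -0.26 in TDP43-WT neocortex. Those ranges overlapped, and the fitted difference of 0.19 ± 0.057 (adjusted p = 0.261) was 0.13 in the model of both regions and 0.11 without TDP43-WT male 2. Cplx3, a complexin found in the deepest cortical layer and in the retina, had -0.35, 0.012 and 0.23 (lowest, median and highest) in TDP43-KQ and 0.23, 0.20, 0.25, 0.22 and 0.22 in TDP43-WT neocortex (-0.15 ± 0.080, adjusted p = 0.421). Its TDP43-KQ libraries were spread over a range that enclosed all TDP43-WT values but the highest. The remaining SNARE genes were Vamp1 (0.056), Vamp2 (0.018), Cplx1 (-0.031), Cplx2 (-0.033) and Snap25 (-0.11).

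Vesicle proteins and transporters differed little in neocortex. Sv2c, the SV2 form known from the basal ganglia, had -0.20, -0.049 and 0.22 (lowest, median and highest) in TDP43-KQ and 0.090, 0.21, 0.17, 0.18 and 0.25 in TDP43-WT neocortex (-0.17 ± 0.094, adjusted p = 0.428). For Synpr the values were -0.22, 0.0044 and 0.29 (lowest, median and highest) in TDP43-KQ and 0.12, 0.21, 0.20, 0.12 and -0.036 in TDP43-WT neocortex (-0.16 ± 0.081, adjusted p = 0.406). Both genes overlapped between the genotypes and moved with single libraries, Sv2c to -0.30 without TDP43-KQ female 1 and -0.049 without TDP43-WT female 3, and Synpr to -0.26 without TDP43-WT male 2 and -0.031 without TDP43-KQ female 1; the other 6 vesicle proteins lay between -0.020 (Sv2b) and 0.093 (Syn1). For Slc17a7 the values were -0.085, -0.0061 and 0.089 (lowest, median and highest) in TDP43-KQ and -0.0012, -0.095, -0.077, -0.087 and -0.18 in TDP43-WT neocortex (0.13 ± 0.054, adjusted p = 0.358), the opposite sign to hippocampus. Slc17a8 had -0.10, -0.045 and 0.16 (lowest, median and highest) in TDP43-KQ and 0.018, 0.25, 0.18, 0.16 and 0.20 in TDP43-WT neocortex (-0.16 ± 0.086, adjusted p = 0.437, -0.24 without TDP43-KQ female 1 and -0.086 without TDP43-WT female 3), and Slc17a6 differed by 0.013. In these libraries all 6 striatal markers had values below 0 (median -0.37). Their list means were -0.22 to 0.16 in TDP43-KQ and 0.029 to 0.48 in TDP43-WT neocortex. Below 0 were also 7 of 8 GABAergic markers (median -0.15, -0.054 to 0.046 in TDP43-KQ and 0.15 to 0.24 in TDP43-WT). The same held for 5 of 5 oligodendrocyte (median -0.21), 5 of 5 astrocyte and 5 of 5 microglial markers. It held too for 4 of 4 choroid plexus markers (median -0.24). The choroid plexus list means overlapped between the genotypes, at -1.24 to 2.19 in TDP43-KQ and -0.52 to 1.21 in TDP43-WT neocortex. On the other side of 0 lay 6 of 9 neocortical glutamatergic markers (median 0.072) and 4 of 4 thalamic markers (median 0.037). The part of all these markers in the release gene values was not tested.

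**Figure D2:**
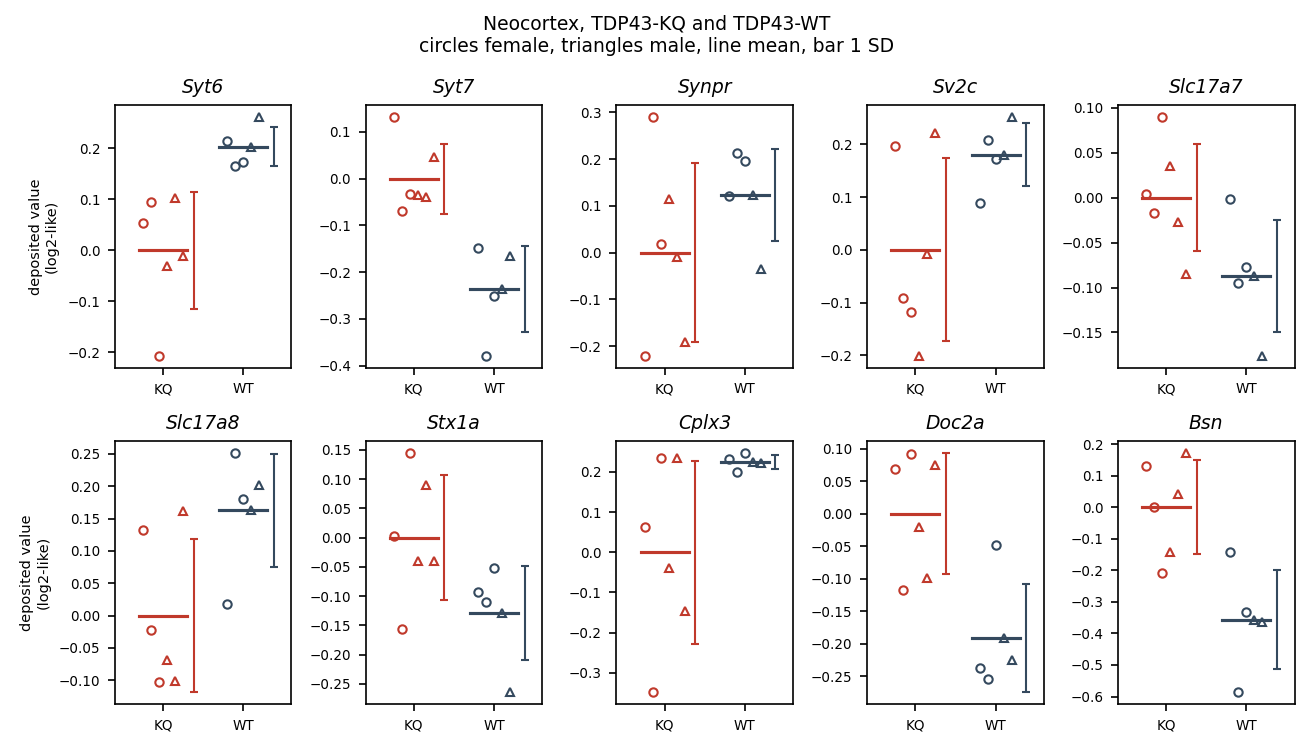
Deposited values (log2-like, y axis, a scale per gene) of the 10 release genes with the smallest p per role in neocortex, TDP43-KQ (n = 6) left of TDP43-WT (n = 5); points are libraries, circles female and triangles male, the line is the mean and the bar 1 SD. Syt7 lies wholly higher and Syt6 wholly lower in TDP43-KQ libraries, and the other 8 overlap; TDP43-WT male 1 sits on the mean line by construction.

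Whether the genotype acted differently in the 2 regions was tested as an interaction in the model of all 20 libraries. By limma 0 of 41 genes passed (percent called among all genes: 0), the smallest adjusted p was 0.718, and at an unadjusted p under 0.05 there were 1 gene higher (Syt6, 0.22 ± 0.098) and 4 lower (2.63 and 3.2 percent of all genes), the 4 coming to 8 without TDP43-KQ female 2 in either region. The 4 were Bsn (-0.48 ± 0.14), Syt7 (-0.28 ± 0.085), Slc17a7 (-0.27 ± 0.074) and Syn1 (-0.17 ± 0.076), each given as the hippocampus difference minus the neocortex difference. Of the 41 genes 32 lay below 0 (50.2 percent of all genes), with a median of -0.072 against -0.00044 over all genes; the median was -0.026 without hippocampus TDP43-KQ female 1. With separate sex and litter terms for each region the median was -0.12, against -0.0061 over all genes. In that fit 10 genes were lower and 1 higher at an unadjusted p under 0.05, and 0 of 41 passed after adjustment. The share of all genes at that unadjusted p was not taken there. In the model with shared terms, Unc13c (0.38 ± 0.22) and Pclo (-0.31 ± 0.16) had larger estimates than some of the genes named above, with wider errors.

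**Figure D3:**
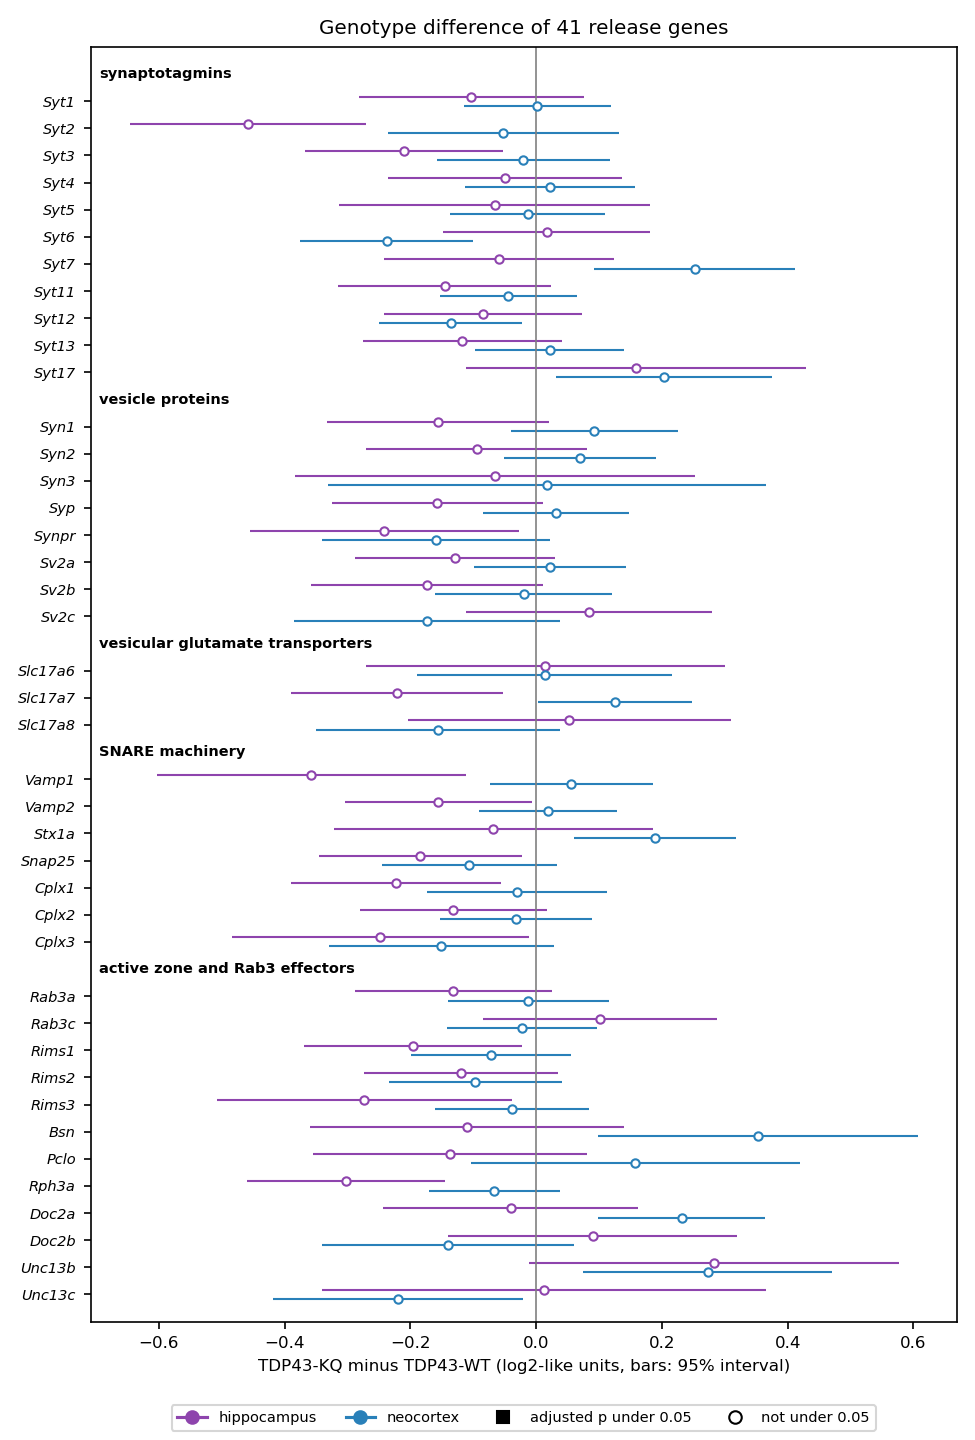
Difference TDP43-KQ minus TDP43-WT (x axis, log2-like units) of the 41 release genes by role, hippocampus above neocortex for each gene, with points at the fitted difference and bars for the 95% interval. All symbols are open because 0 of 41 genes passed an adjusted p of 0.05 in either region; 32 hippocampus points and 22 neocortex points lie below 0.

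TDP-43 binds RNA rich in UG repeats, so the spliced transcripts of these genes were searched for such runs. Introns were not searched, so a gene without a run here can still hold one in an intron. Runs of at least 6 TG repeats (TGTGTGTGTGTG, on the transcript's own strand) were found in the longest protein-coding GENCODE M21 transcript of 8 of the 41 genes (19.5 percent), against 6.41 percent of 21877 protein-coding genes, and in all 8 the longest run lay in the 3′ untranslated region. The members' transcripts are also longer, with a median of 4137 bases against 2681, and no test was made of the share. The runs were of 44 bases in Syt2, 42 in Rab3c, 36 in Syt7, 26 in Bsn, 22 in Slc17a8, 14 in Sv2a, 14 in Vamp2 and 12 in Rims3, and the hippocampus differences of these 8 genes were Syt2 (-0.46), Rab3c (0.10), Syt7 (-0.059), Bsn (-0.11), Slc17a8 (0.053), Sv2a (-0.13), Vamp2 (-0.16) and Rims3 (-0.27), 6 below 0 and 2 above. Of all 41 genes, 32 lay below 0 in hippocampus. The runs of Syt2, which led the hippocampus differences, and of Bsn and Syt7, which were among the leading neocortex ones, are shown (GRCm38, at most 30 bases of a run), all in capitals because the whole run is the repeat.
Syt2 (chr1:134748094-134748123, plus strand): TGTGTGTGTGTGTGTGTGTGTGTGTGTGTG
Syt7 (chr19:10448992-10449021, plus strand): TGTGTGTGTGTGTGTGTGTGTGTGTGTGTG
Bsn (chr9:108096426-108096451, minus strand): TGTGTGTGTGTGTGTGTGTGTGTGTG
A match describes these letters and not a bound site, and a link between the runs and the differences was not tested.

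Most release genes had lower values in hippocampus than in neocortex, in both genotypes. By limma, in TDP43-KQ mice 32 of 41 genes passed the test of hippocampus against neocortex, 4 higher and 28 lower (35.4 percent of all genes called, 17.2 percent higher and 18.2 percent lower), and in TDP43-WT mice 29 passed, 6 higher and 23 lower (28.2 percent of all genes, 13.5 and 14.7 percent). The median difference was -0.36 in TDP43-KQ and -0.22 in TDP43-WT mice, against 0.013 and 0.0054 over all genes. Libraries did not overlap for 25 genes lower and 3 higher in TDP43-KQ mice (15.5 and 12.2 percent of all genes) and for 24 lower and 6 higher in TDP43-WT mice (16.8 and 15.3 percent). Within 1 region and genotype the SD of a gene was smaller than the leading regional differences, with a median over the 41 genes of 0.084, 0.071, 0.083 and 0.060 in hippocampus TDP43-KQ, hippocampus TDP43-WT, neocortex TDP43-KQ and neocortex TDP43-WT libraries, and a largest SD of 0.28 (Unc13c in hippocampus TDP43-KQ).

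Synaptotagmins held the largest difference. Syt6 (GRCm38 chr3:103575231-103645569, plus strand) had -1.67, -1.73, -1.46, -1.67 and -1.64 in hippocampus and -0.21, 0.021 and 0.10 (lowest, median and highest) in neocortex of TDP43-KQ mice, and -1.58, -1.71, -1.59 and -1.72 in hippocampus against 0.21, 0.16, 0.17, 0.20 and 0.26 in neocortex of TDP43-WT mice. It was lower in hippocampus, by differences of -1.63 ± 0.064 in TDP43-KQ (adjusted p = 9.22e-11) and -1.85 ± 0.073 in TDP43-WT mice (adjusted p = 1.71e-10). Syt2 (GRCm38 chr1:134646677-134762593, plus strand) had -0.94, -0.30, -0.64, -0.81 and -0.65 in hippocampus and -0.37, 0.036 and 0.30 (lowest, median and highest) in neocortex of TDP43-KQ mice, and -0.42, -0.35, -0.40 and -0.36 against 0.11, 0.19, 0.086, 0.16 and 0.26 in TDP43-WT mice. The regions overlapped only in TDP43-KQ mice, through the 2 mirrored libraries of female 2 (-0.67 ± 0.12 and -0.54 ± 0.13, adjusted p = 4.01e-04 and 0.00658). Syt12, a synaptotagmin that does not bind calcium, had -0.50, -0.35, -0.46, -0.47 and -0.52 in hippocampus and -0.11, 0.0036 and 0.079 (lowest, median and highest) in neocortex of TDP43-KQ mice, and -0.50, -0.43, -0.38 and -0.36 against 0.18, 0.22, 0.13, 0.17 and 0.16 in TDP43-WT mice (-0.46 ± 0.047 and -0.59 ± 0.054, adjusted p = 2.08e-06 and 7.93e-07).

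Lower in hippocampus in both genotypes were also Syt1 (-0.24 in TDP43-KQ and -0.22 in TDP43-WT), Syt4 (-0.41 and -0.40), Syt5 (-0.41 and -0.40) and Syt13 (-0.36 and -0.26). Syt11 passed in TDP43-KQ mice, though not without neocortex female 3 or hippocampus female 1 (-0.13, against -0.073 in TDP43-WT). Syt3 was higher in hippocampus in both (0.17 and 0.24; not past the threshold in TDP43-KQ mice without female 2), and Syt17 passed in TDP43-WT mice (0.46) but not in TDP43-KQ (0.24, adjusted p = 0.0586). For Syt7 the values were -0.13, -0.016, -0.088, -0.028 and -0.16 in hippocampus and -0.070, -0.034 and 0.13 (lowest, median and highest) in neocortex of TDP43-KQ mice, and 0.031, -0.13, 0.013 and -0.059 against -0.15, -0.38, -0.25, -0.24 and -0.17 in TDP43-WT mice. Its regional difference passed in TDP43-WT mice (0.20 ± 0.064, adjusted p = 0.0308, no longer past the threshold, at an adjusted p of up to 0.12, when neocortex TDP43-WT female 2 or 3, or hippocampus TDP43-WT female 1, female 3 or male 1, was left out) and not in TDP43-KQ mice (-0.086 ± 0.056), and the difference between the 2 did not pass, as given above.

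In the SNARE machinery Stx1a (GRCm38 chr5:135023482-135051100, plus strand) led. Its values were -1.49, -1.22, -1.56, -1.13 and -1.48 in hippocampus and -0.16, -0.018 and 0.14 (lowest, median and highest) in neocortex of TDP43-KQ mice, and -1.30, -1.32, -1.37 and -1.35 against -0.092, -0.11, -0.052, -0.13 and -0.26 in TDP43-WT mice, more than 1 unit apart between the nearest libraries of TDP43-WT mice. The differences were -1.38 ± 0.082 and -1.20 ± 0.093 (adjusted p = 6.30e-09 and 1.35e-07). Snap25, its partner at the plasma membrane, had -0.56, -0.39, -0.34, -0.40 and -0.44 in hippocampus and -0.13, 0.012 and 0.091 (lowest, median and highest) in neocortex of TDP43-KQ mice, and -0.35, -0.27, -0.31 and -0.31 against 0.14, 0.21, 0.046, 0.13 and 0.14 in TDP43-WT mice, a smaller but complete separation (-0.43 ± 0.052 and -0.44 ± 0.059, adjusted p = 1.20e-05 and 3.85e-05). Cplx1 had -0.53, -0.31, -0.43, -0.50 and -0.44 in hippocampus and -0.13, 0.027 and 0.11 (lowest, median and highest) in neocortex of TDP43-KQ mice, and -0.39, -0.24, -0.41 and -0.24 against 0.062, 0.10, 0.065, 0.084 and 0.10 in TDP43-WT mice (-0.44 ± 0.062 and -0.41 ± 0.070, adjusted p = 4.61e-05 and 4.29e-04). Vamp2 (-0.25 and -0.18) and Cplx3 (-0.40 and -0.40) were lower in both genotypes, Cplx3 no longer past the threshold in TDP43-WT mice without any one of the 4 hippocampus libraries or of neocortex females 1, 2 and 3 and male 2, and in TDP43-KQ mice without neocortex female 3 or hippocampus female 1. Vamp1 was lower in TDP43-KQ mice (-0.42, against -0.28 in TDP43-WT, adjusted p = 0.083). Cplx2 was the exception, with -0.096, -0.19, -0.0063, -0.063 and -0.057 in hippocampus and -0.090, -0.0090 and 0.11 (lowest, median and highest) in neocortex of TDP43-KQ mice, and 0.037, 0.091, 0.10 and 0.043 against -0.045, 0.031, -0.0075, 0.011 and 0.065 in TDP43-WT mice, differences of -0.083 ± 0.047 and 0.057 ± 0.053 that did not pass.

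Active zone genes and Rab3 effectors went both ways. Doc2b (GRCm38 chr11:75768966-75796049, minus strand), a calcium sensor related to Doc2a, was the one leading gene higher in hippocampus, with 1.49, 1.29, 1.19, 1.11 and 1.43 in hippocampus and -0.10, -0.013 and 0.22 (lowest, median and highest) in neocortex of TDP43-KQ mice, and 1.40, 1.30, 1.27 and 1.22 against -0.13, 0.039, 0.22, 0.084 and 0.21 in TDP43-WT mice (1.30 ± 0.089 and 1.22 ± 0.10, adjusted p = 2.72e-08 and 2.96e-07). Doc2a (GRCm38 chr7:126847416-126852705, plus strand) was lower, with -1.09, -0.93, -1.16, -0.90 and -1.16 in hippocampus and -0.12, 0.024 and 0.092 (lowest, median and highest) in neocortex of TDP43-KQ mice, and -0.99, -1.05, -1.18 and -1.02 against -0.24, -0.25, -0.047, -0.19 and -0.22 in TDP43-WT mice (-1.05 ± 0.069 and -0.87 ± 0.079, adjusted p = 1.84e-08 and 7.09e-07). The 2 paralogues therefore stood on opposite sides of 0 without overlap in either genotype. Rims3 (GRCm38 chr4:120854816-120896579, plus strand) had -1.43, -1.04, -1.38, -1.11 and -1.43 in hippocampus and -0.24, 0.023 and 0.16 (lowest, median and highest) in neocortex of TDP43-KQ mice, and -1.16, -1.04, -1.15 and -1.06 against 0.16, 0.18, 0.10, 0.12 and 0.041 in TDP43-WT mice (-1.28 ± 0.086 and -1.22 ± 0.098, adjusted p = 2.23e-08 and 1.90e-07), wider than the differences of Rims1 (-0.39 and -0.27) and Rims2 (-0.41 and -0.41), which were lower too.

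Of the Munc13 genes, Unc13c had -0.92, -0.28, -0.59, -0.58 and -0.96 in hippocampus and -0.39, 0.049 and 0.18 (lowest, median and highest) in neocortex of TDP43-KQ mice, and -0.82, -0.55, -0.75 and -1.03 against 0.047, 0.42, 0.13, 0.26 and 0.43 in TDP43-WT mice. It was lower in hippocampus (-0.67 ± 0.14 and -1.04 ± 0.16, adjusted p = 0.00188 and 1.63e-04), and the TDP43-KQ regions overlapped through female 2, whose mirrored deviations come from the litter removal. Unc13b, with 0.17, 0.16, -0.00022, -0.040 and -0.024 in hippocampus and -0.15, -0.020 and 0.16 (lowest, median and highest) in neocortex of TDP43-KQ mice, and -0.021, -0.46, 0.085 and -0.19 against -0.18, -0.47, -0.37, -0.29 and -0.12 in TDP43-WT mice, did not pass (0.053 ± 0.10 and 0.14 ± 0.12). Rph3a had -0.76, -0.55, -0.60, -0.57 and -0.66 in hippocampus and -0.081, -0.0054 and 0.11 (lowest, median and highest) in neocortex of TDP43-KQ mice, and -0.46, -0.38, -0.30 and -0.35 against 0.19, 0.15, 0.037, 0.11 and 0.074 in TDP43-WT mice, lower without overlap in both (-0.63 ± 0.052 and -0.49 ± 0.059, adjusted p = 2.15e-07 and 1.58e-05). The 2 vesicle GTPases parted, Rab3a being lower (-0.24 and -0.20) and Rab3c higher (0.29 and 0.18) in hippocampus. The TDP43-WT call of Rab3c was lost with libraries centred on their medians and without any one of 9 libraries (TDP43-WT neocortex females 1, 2 and 3 and male 2 and hippocampus females 1 and 2, and TDP43-KQ neocortex male 3 and hippocampus female 1 and male 1), and that of Rab3a without hippocampus TDP43-WT female 3. Bsn passed in TDP43-KQ mice (-0.40) and not in TDP43-WT mice (0.082), and Pclo in neither (-0.033 and 0.28).

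Sv2c had -0.97, -0.81, -0.99, -0.79 and -0.96 in hippocampus and -0.20, -0.049 and 0.22 (lowest, median and highest) in neocortex of TDP43-KQ mice, and -1.01, -0.90, -0.71 and -1.06 against 0.090, 0.21, 0.17, 0.18 and 0.25 in TDP43-WT mice. This was the largest difference among the vesicle proteins, -0.90 ± 0.088 and -1.10 ± 0.10 (adjusted p = 1.25e-06 and 7.93e-07), where Sv2a (-0.25 and -0.19, the TDP43-WT call lost without hippocampus female 3) and Sv2b (-0.37 and -0.30) were lower by less. The synapsins parted as the Doc2 genes did: Syn1 was lower in hippocampus (-0.42 and -0.24), Syn2 higher (0.20 and 0.34) and Syn3 passed in neither genotype (-0.34 and -0.17). Syp, the general vesicle marker synaptophysin, passed in TDP43-KQ mice (-0.20, against -0.12 in TDP43-WT), and Synpr in neither (-0.27 and -0.16).

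The transporters differed least. Slc17a6 had 0.022, 0.26, 0.18, 0.19 and 0.069 in hippocampus and -0.13, -0.062 and 0.20 (lowest, median and highest) in neocortex of TDP43-KQ mice, and -0.15, 0.29, -0.15 and 0.050 against 0.17, 0.015, -0.011, 0.030 and -0.056 in TDP43-WT mice (0.14 ± 0.094 and -0.018 ± 0.11). For Slc17a8 the values were 0.18, 0.17, 0.18, -0.073 and 0.28 and -0.10, -0.045 and 0.16 (lowest, median and highest) in TDP43-KQ mice, hippocampus before neocortex, and -0.025, 0.097, 0.14 and 0.14 against 0.018, 0.25, 0.18, 0.16 and 0.20 in TDP43-WT mice (0.15 ± 0.075 and -0.075 ± 0.086). Neither gene passed in either genotype, and the regions overlapped. Slc17a7 was lower in hippocampus of TDP43-KQ mice (-0.29 ± 0.049, adjusted p = 2.55e-04) and differed by -0.019 ± 0.056 in TDP43-WT mice (95% interval -0.14 to 0.10).

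**Figure D4:**
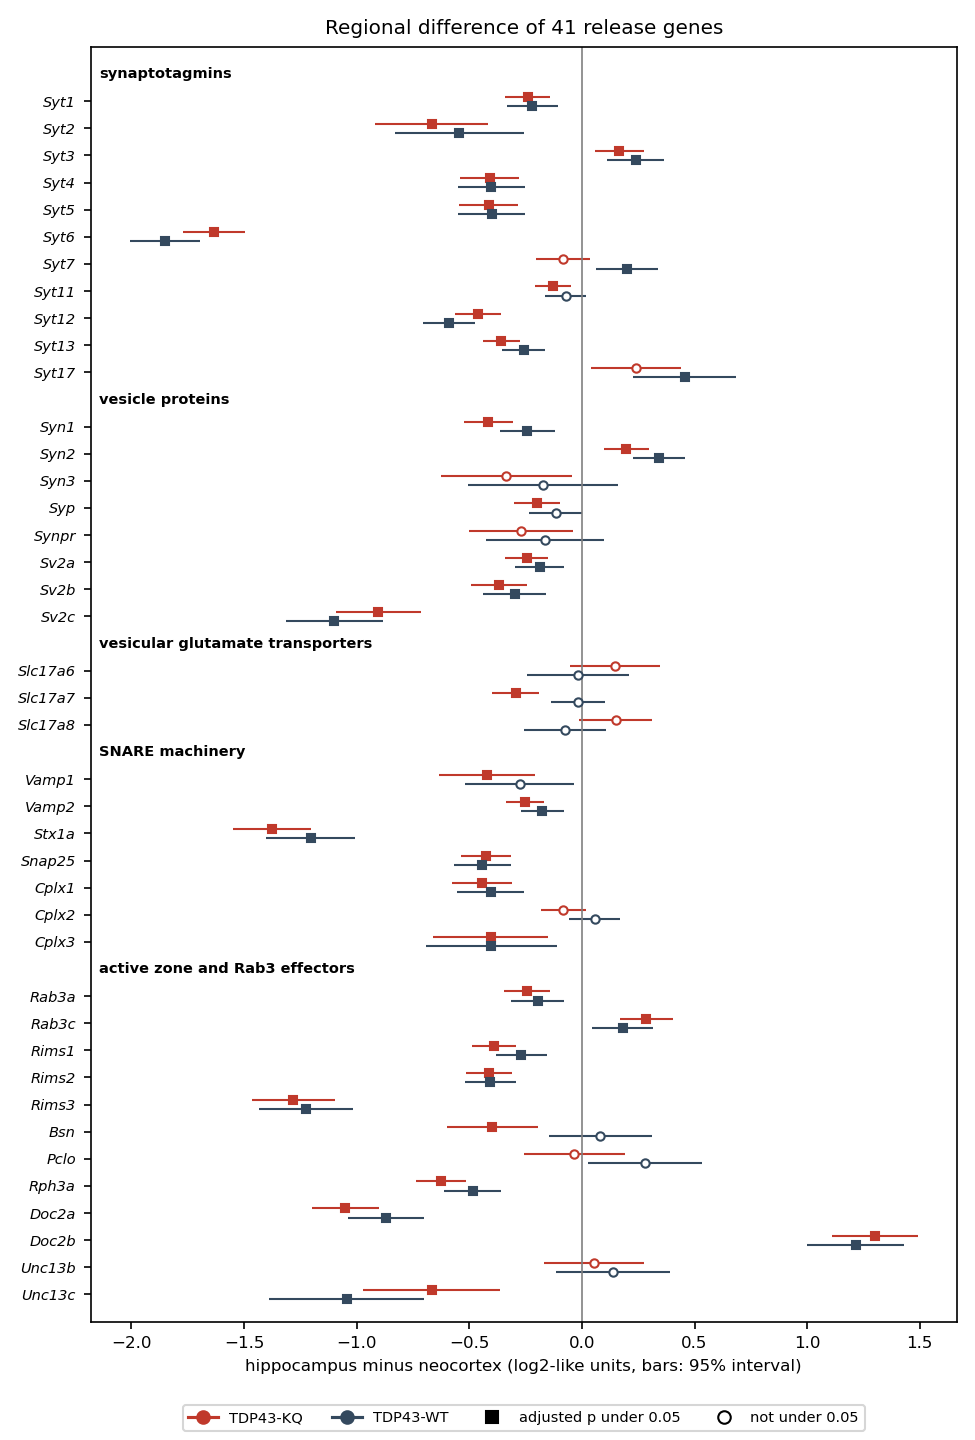
Difference hippocampus minus neocortex (x axis, log2-like units) of the 41 release genes by role, TDP43-KQ above TDP43-WT for each gene, with bars for the 95% interval; filled squares passed an adjusted p of 0.05 and open circles did not. In TDP43-KQ mice 28 genes and in TDP43-WT mice 23 genes are filled on the lower side, and Doc2b stands alone beyond 1 on the higher side.

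**Figure D5:**
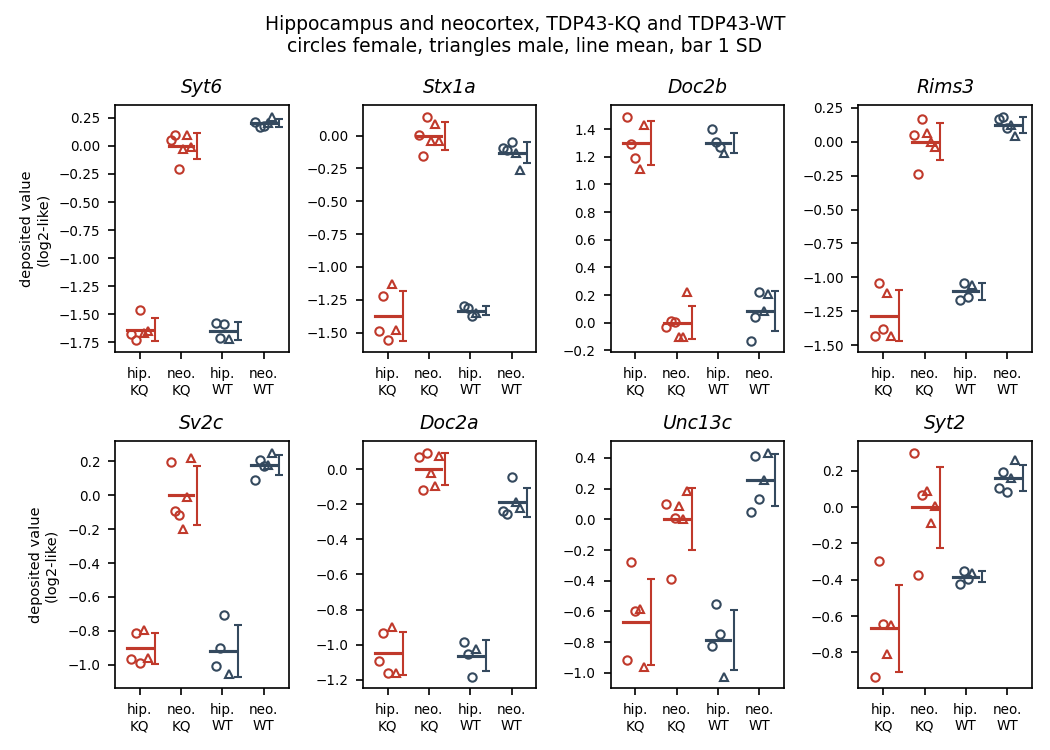
Deposited values (log2-like, y axis, a scale per gene) of the 8 genes with the largest regional difference, as hippocampus and neocortex of TDP43-KQ mice and then hippocampus and neocortex of TDP43-WT mice; points are libraries, circles female and triangles male, the line is the mean and the bar 1 SD. Hippocampus libraries lie below neocortex libraries for 7 genes and above them for Doc2b, with overlap only for Unc13c and Syt2 in TDP43-KQ mice.

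Where a promoter was available, those of the 41 genes were searched for 3 short motifs. RefSeq (GRCm38.p6) gave a promoter for 29 of the 41 genes, those without being Syt4, Syt5, Syt7, Syt12, Syt13, Syt17, Syn3, Vamp2, Snap25, Rims2, Doc2a and Doc2b. In the 250 bases before the start, the GC box (GGGCGG on either strand) was found in 22 of 29 (75.9 percent, against 45.8 percent of 17492 protein-coding genes), the E-box CACGTG in 4 (13.8 percent against 7.61) and the cyclic AMP response element TGACGTCA in 1, Syn1 (3.45 percent against 2.2). A gene was counted if any of its starts had the motif, and several members, such as Sv2b, Syt6 and Rph3a, have more than 1 start. With each promoter counted singly, the GC box was in 42.6 percent of 21263 promoters of all genes. That share is not on the same basis as the 75.9 percent, which counts genes and can rise with the number of starts. No test was made of these shares. The 3 motifs were searched on both strands and do not overlap each other. From 3 roles, a gene that was lower in hippocampus and has 1 RefSeq start in that table is shown, with motif letters in capitals.
Stx1a promoter (chr5:135023232-135023481, plus strand): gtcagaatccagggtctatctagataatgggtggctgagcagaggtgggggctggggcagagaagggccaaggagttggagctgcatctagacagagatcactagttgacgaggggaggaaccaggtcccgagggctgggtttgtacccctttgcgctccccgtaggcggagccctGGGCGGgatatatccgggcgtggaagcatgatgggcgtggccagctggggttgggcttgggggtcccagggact
Rims3 promoter (chr4:120854549-120854798, plus strand): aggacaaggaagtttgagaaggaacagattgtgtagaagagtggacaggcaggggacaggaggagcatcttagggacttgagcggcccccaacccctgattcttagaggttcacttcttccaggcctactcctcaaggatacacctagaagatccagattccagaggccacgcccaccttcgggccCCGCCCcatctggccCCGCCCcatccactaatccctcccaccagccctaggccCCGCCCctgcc
Sv2c promoter (chr13:96132578-96132827, minus strand): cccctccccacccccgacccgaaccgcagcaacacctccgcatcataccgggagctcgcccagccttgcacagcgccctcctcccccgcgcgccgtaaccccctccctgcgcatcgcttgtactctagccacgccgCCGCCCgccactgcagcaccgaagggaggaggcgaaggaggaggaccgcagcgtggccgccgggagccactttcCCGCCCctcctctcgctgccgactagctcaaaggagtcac
Stx1a held 1 GC box, Rims3 held 3 and Sv2c held 2, and none of the 3 held the other motifs; a match is a description of these letters.

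The regions also differed in their cells. Neocortical glutamatergic markers lay below 0 (hippocampus minus neocortex) in 7 of 9 (median -1.20 in TDP43-KQ and -1.07 in TDP43-WT mice), hippocampal ones above 0 in 9 of 9 (median 1.63 and 1.87), striatal ones below 0 in 6 of 6 (median -2.07 and -2.47), and GABAergic ones below 0 in 8 of 8 in TDP43-KQ (median -0.32) and 7 of 8 in TDP43-WT mice (median -0.53). Choroid plexus markers were above 0 in 4 of 4 (median 2.42 and 1.16). Their part in the regional differences of the release genes was not tested.

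A list of 55 further genes of vesicle release, docking and recycling gave no call for genotype in the region fits with sex and litter. By limma 0 of 55 passed in hippocampus, with 3 higher and 4 lower at an unadjusted p under 0.05 (6.48 and 5.67 percent of all genes), and 0 of 55 in neocortex, with 3 higher and 5 lower (7.69 and 5.97 percent). In hippocampus 37 lay below 0 and 18 above, with a median of -0.073, and in neocortex 23 below and 32 above, with a median of 0.013. Between the regions 36 of 55 passed in TDP43-KQ mice, 13 higher and 23 lower in hippocampus (17.2 and 18.2 percent of all genes), and 34 in TDP43-WT mice, 16 higher and 18 lower (13.5 and 14.7 percent). The largest were Slc18a3, the vesicular acetylcholine transporter (-0.72 in TDP43-KQ and -0.97 in TDP43-WT), Slc32a1, the vesicular GABA transporter (-0.62 and -0.72), the liprins Ppfia2 (0.60 and 0.72) and Ppfia4 (0.55 and 0.69), the vesicular zinc transporter Slc30a3 (-0.79 and -0.51) and the dynamin Dnm3 (-0.62 and -0.57).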

How the data were processed

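Total RNA-seq libraries of dissected tissue were, per the labels and the study's methods, trimmed with cutadapt, aligned with STAR 2.5.2b to mm10, quantified with Salmon and variance-stabilised with DESeq2 1.34.0 in R 4.1.0, after which the authors took out effects of sex and litter by limma. Values as deposited are on this log2-like scale, relative to the neocortex TDP43-KQ mean, with no counts and unknown depth; 4383 of 24528 rows are at 0 in every library and were left out. Genotype was tested per region with limma 3.58.1 (R 4.3.3, statmod 1.5.0) with sex and litter, and regions were compared in 1 model of 4 groups with sex and litter; p-values were adjusted by Benjamini-Hochberg over all genes tested, with a threshold of 0.05. The scripts were tested on simulated data with independent libraries. Sex and litter had not been removed from those data, so the test does not cover the effect of that removal. The 41 genes, their 5 roles and the other lists were chosen with earlier results of these data known. Values per library are given for the 2 genes of each role with the smallest p in a region, the 12 with the largest and the 5 with the smallest regional difference averaged over the genotypes; Tardbp checks the labels. From the further release genes, the 6 with the largest regional difference are named. Positions are from GENCODE M21. Alternatives changed the model terms, the filter on rows at the floor, the centring, the variance prior and the libraries used.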

Additional observations from a re-analysis of the deposited data

Results flagged for a closer look

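Over the 41 genes and 4 groups, 164 sets of values were examined for a single library far from the others, and 7 passed Dixon's limit. For independent values chance flags about 1 in 20. That rate does not hold for neocortex TDP43-WT, where male 1 holds the mean of its group and makes the limit harder to reach. In hippocampus, Sv2b was -0.48 in TDP43-KQ female 1, against -0.36 to -0.31 in the other TDP43-KQ libraries. Syt5 was -0.26 in TDP43-WT female 2, against -0.41 to -0.39 in the other TDP43-WT libraries. Syn1 was -0.25 in TDP43-WT female 1, against -0.32 to -0.31 in the others, and Vamp1 was -0.13 in the same library, against -0.27 to -0.27. Sv2a was -0.26 in TDP43-WT female 3, against -0.16 to -0.15. In neocortex, Doc2b was 0.22 in TDP43-KQ male 3, against -0.10 to 0.012 in the other TDP43-KQ libraries, and Unc13c was -0.39 in TDP43-KQ female 2, against 0.0044 to 0.18. The value of Unc13c in TDP43-KQ female 2 is the mirror of that library's hippocampus value, left by the removal of litter.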

How the results depend on the processing

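Model terms decided the genotype calls. In neocortex, where 0 of 41 genes passed with sex and litter in the model, 8 passed with genotype alone (15 percent of all genes), 7 with genotype and sex (10.6 percent), 8 with litter as a random effect (13.2 percent), and 6 with sex and replicate number as a replicate block in place of litter (10.1 percent); in hippocampus 1 passed with genotype alone (Rph3a, 2.04 percent of all genes). These fits do not count the freedom spent when sex and litter were removed from the deposited values. As each library was left out, the genotype calls stayed at 0, the regional calls ran from 30 to 34 in TDP43-KQ and from 25 to 30 in TDP43-WT mice, the hippocampus genotype difference of Slc17a8 ran from -0.037 to 0.14, and the TDP43-WT regional difference of Slc17a6 from -0.12 to 0.069. The values that turned were -0.037 and -0.011 for Slc17a8, without TDP43-KQ female 1 and male 2, and 0.034, 0.041 and 0.069 for Slc17a6, without neocortex TDP43-WT female 1 and hippocampus TDP43-WT females 1 and 3.

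Whether replicate numbers pair the samples is not given by the labels and could not be checked in these values: same-numbered females share a litter, and litter was removed over both regions together, which shapes how their deviations correlate (-1 for TDP43-KQ female 2). With each female mouse as a replicate block (random effect), 34 genes passed between regions in TDP43-KQ and 30 in TDP43-WT mice; with females only and a fixed block 25 and 25 passed. Lost there were Syt2, Syt3 and Cplx3 in both genotypes, Syt11, Vamp1, Syn2 and Unc13c in TDP43-KQ mice and Rab3c in TDP43-WT mice. Over all alternatives run, 5 counts of called genes moved, all for genotype within a region as given above, and 154 did not. Most of the 154 were for genotype or its interaction with region. These had no calls in the main fit or in the alternative, so a ratio to the main value has no meaning there. The regional counts, including those just given, stayed within 1.5 times their main value. The 3 hippocampus libraries without weight in the genotype fit, the unknown depth and the lack of an abundance scale limit what could be detected.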
